A study of Mus musculus with 12 samples.

Results

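The 7 genes described here are the adult hemoglobin genes of the mouse and 3 genes for other red cell proteins, measured in RNA from veins. They were chosen by symbol as Hba-a1, Hba-a2, Hbb-bs, Hbb-bt, Alas2, Slc4a1 and Bpgm, and all 7 were found among the 43346 genes of the deposited count table. The 12 mouse libraries came from veins taken at day 7 after an operation. Sham samples (n = 6) were jugular veins after the sham operation. AVF-CKD samples (n = 6) were the venous limb of the AVF after the operation of that name. AVF is taken to stand for arteriovenous fistula, an artery joined surgically to a vein, and CKD for chronic kidney disease, since the labels give the letters alone. Strain, sex and age were not given in the sources used here. GEO's labels do not tie each library to its own mouse, so p-values reflect only how these samples spread, which may be technical.

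Hemoglobin, the oxygen carrier of red cells, is built from alpha chains, encoded by Hba-a1 and Hba-a2, and beta chains, encoded by Hbb-bs and Hbb-bt. Alas2 encodes the enzyme that starts heme synthesis in erythroid cells, Slc4a1 the band 3 anion exchanger of the red cell membrane, and Bpgm the enzyme that makes 2,3-bisphosphoglycerate, which lowers the oxygen affinity of hemoglobin. Mature mammalian red cells have no nucleus. Young red cells, the reticulocytes, still carry globin RNA, so a vein sampled with blood in it can hold these transcripts. The question here was how far they varied over the 12 libraries and whether they differed between the groups.

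Promoter windows are shown first, as a description of the genes. No link between them and the levels in the libraries was tested. Each window is the 120 bases before the gene's start in RefSeq (build GRCm38.p6), which had an entry for 6 of the 7 genes. Capitals mark the letters of 4 motifs searched on both strands, which were CACCC of the CACCC box, CCAAT of the box of that name, TATAA of the TATA box, and AGATAA, a form of the site of GATA factors. None of the matches overlap. The Hba-a1 window lies at chr11:32283552-32283671 on the plus strand, the Hbb-bs window at chr7:103827929-103828048 and the Hbb-bt window at chr7:103813924-103814043, both on the minus strand. The Alas2 window lies at chrX:150547297-150547416 and the Bpgm window at chr6:34476236-34476355, both on the plus strand.
Hba-a1: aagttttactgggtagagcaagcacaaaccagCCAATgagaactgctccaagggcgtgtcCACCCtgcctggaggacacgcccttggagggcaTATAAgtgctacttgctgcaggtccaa
Hbb-bs: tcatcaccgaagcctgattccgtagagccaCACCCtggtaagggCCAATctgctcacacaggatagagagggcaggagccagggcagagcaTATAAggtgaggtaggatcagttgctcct
Hbb-bt: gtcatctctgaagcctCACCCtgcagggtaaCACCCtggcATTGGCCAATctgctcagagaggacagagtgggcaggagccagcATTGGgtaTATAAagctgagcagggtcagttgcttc
Alas2: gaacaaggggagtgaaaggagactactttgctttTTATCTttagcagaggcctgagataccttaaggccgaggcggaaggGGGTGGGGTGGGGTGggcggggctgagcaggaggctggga
Bpgm: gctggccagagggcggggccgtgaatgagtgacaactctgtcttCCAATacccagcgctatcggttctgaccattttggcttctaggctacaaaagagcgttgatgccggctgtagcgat

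The window of Hba-a2 (chr11:32296372-32296491, plus strand) is the Hba-a1 window shifted by 3 bases, with 0 differences over the 117 bases they share. Those of Hbb-bs and Hbb-bt differ at 31 of 119 bases after a shift of 1. Each of the 4 globin windows held at least 1 match to CACCC, to CCAAT and also to TATAA. The Alas2 window held CACCC 3 times and AGATAA 1 time, all on the opposite strand, and neither of the other motifs. In the Bpgm window the only match was 1 CCAAT. Among all 32851 RefSeq windows of this length, 31.7% held CACCC, 21.3% CCAAT, 11.8% TATAA and 4.36% AGATAA. A match describes letters and does not show binding. The deposited count table places the starts of Hba-a1, Hbb-bs and Bpgm upstream of these windows and those of Hba-a2, Hbb-bt and Alas2 inside them. The start sites therefore differ between that table and RefSeq.

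The globin genes come as near-identical copies, which limits what counts per copy can show. The coding sequences of Hba-a1 and Hba-a2 (429 bases) differ by 1 base, C381T, counted from 1 at the first base of the start codon, with Hba-a1 as the reference. Those of Hbb-bs and Hbb-bt (444 bases) also differ by 1 base, C417T, with Hbb-bs as the reference. Identity was 99.8% in both pairs. The 60 coding bases around each difference follow, with the differing base in capitals, because these are the only coding letters that separate the copies. They lie in exons at chr11:32284313-32284372 and chr11:32297130-32297189 on the plus strand and at chr7:103826665-103826724 and chr7:103812656-103812715 on the minus strand (GRCm38).
Hba-a1: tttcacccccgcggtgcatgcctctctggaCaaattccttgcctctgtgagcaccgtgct
Hba-a2: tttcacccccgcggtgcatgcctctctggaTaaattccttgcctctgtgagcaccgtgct
Hbb-bs: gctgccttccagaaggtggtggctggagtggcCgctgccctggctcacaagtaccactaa
Hbb-bt: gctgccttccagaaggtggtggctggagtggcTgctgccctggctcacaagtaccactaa

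Of all stretches of 100 bases in the GENCODE M21 transcript of Hba-a1, 56.5% also occur in that of Hba-a2. For Hbb-bs and Hbb-bt the share was 62.6%. Reads from such stretches fit both copies, and how the deposited counts treated them was not given in the sources used here. Values per copy are therefore uncertain. The sums of each pair do not depend on how such reads were split between copies, but would be too low if such reads were left out. Alpha and beta sums need not then be affected alike. Alas2 has a separate limit. Its exons overlap those of Apex2, a DNA repair gene on the opposite strand, and of a microRNA gene over 15.5% of their 2403 bases, and the library kit does not mark strand. The exons of the other 6 genes overlap no other model.

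All 7 genes were detected in all 12 libraries, at levels that spanned orders of magnitude. On the deposited RPKM scale (reads per kilobase of gene and per M, 1e6, mapped reads), which allows levels of different genes to be compared, Hbb-bs was the highest with a mean of 1748 over the 12 libraries. Hbb-bt followed at 889, Hba-a2 at 849 and Hba-a1 at 785. Alas2 averaged 56.3 RPKM, Bpgm 17.5 and Slc4a1 0.43. The order Hbb-bs over Hbb-bt held in 12 of 12 libraries, and so did Hba-a2 over Hba-a1. Hba-a1 over Alas2, Alas2 over Bpgm and Bpgm over Slc4a1 also held in 12 of 12. Hbb-bt exceeded Hba-a2 in only 5 of 12 libraries, 1 sham and 4 AVF-CKD, so these neighbours had no fixed order. The RPKM order of the alpha copies rests on division by gene length, 667 bases for Hba-a2 and 812 for Hba-a1. Before that division Hba-a1 had more reads than Hba-a2 in every library, with totals of 423312 and 376770. Which alpha copy was the more abundant therefore cannot be told from these values. Together the 4 adult globins held 0.110% to 0.544% of all counts in sham libraries and 0.303% to 0.575% in AVF-CKD libraries. Library totals were 38.65 to 60.14 M counts. The lowest member, Slc4a1, rested on 33 to 260 counts per library.

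In the following, levels are CPM, counts per M counts of the TMM-scaled library size. The beta globin Hbb-bs ranged in sham from 422 CPM through a median of 1477 to 2359, a 5.58-fold range, and in AVF-CKD from 1318 through 1982 to 2932, a 2.22-fold range. Its means were 1507 CPM ± 776 (SD, n = 6) and 2010 CPM ± 524 (SD, n = 6). The groups overlapped, with 3 sham libraries below the lowest AVF-CKD library and 1 AVF-CKD library above the highest sham library. The second beta globin, Hbb-bt, ranged from 171 through 630 to 1024 CPM in sham and from 529 through 768 to 1108 CPM in AVF-CKD. Here too 3 sham libraries lay below all AVF-CKD libraries, and 2 AVF-CKD libraries lay above all sham libraries.

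The alpha globin Hba-a1 ranged from 262 through a median of 693 to 1070 CPM in sham and from 628 through 773 to 954 CPM in AVF-CKD. Its means were 716 CPM ± 309 (SD, n = 6) and 769 CPM ± 115 (SD, n = 6). The whole AVF-CKD group lay inside the sham range. Its copy Hba-a2 gave 255 through 630 to 926 CPM in sham and 587 through 677 to 839 CPM in AVF-CKD, again inside the sham range.

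Alas2, the heme synthesis enzyme, ranged from 33.4 through 143 to 225 CPM in sham and from 122 through 172 to 252 CPM in AVF-CKD. Bpgm, the red cell enzyme, ranged from 36.8 through 68.2 to 99.5 CPM in sham and from 62.8 through 71.0 to 100 CPM in AVF-CKD. Slc4a1, the membrane exchanger, ranged from 0.553 through 1.64 to 6.02 CPM in sham and from 1.71 through 1.93 to 4.12 CPM in AVF-CKD. Of the 7 genes it had the widest sham range, 10.9-fold, and it rests on the fewest counts. For all 7 genes the lowest library was sham 1, and sham 1, 2 and 3 were the libraries below the whole AVF-CKD group.

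**Figure D1:**
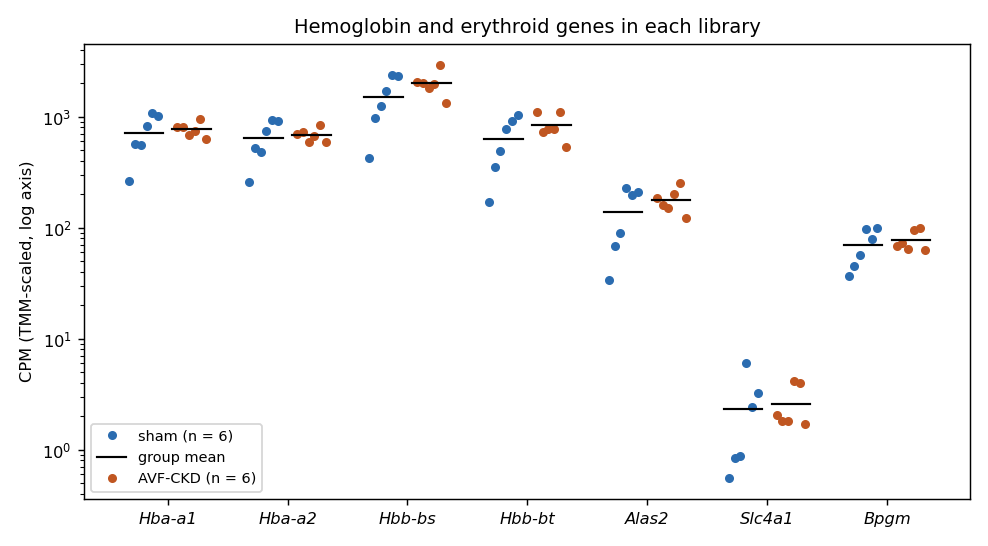
Level of each of the 7 genes in each library, in TMM-scaled CPM on a log axis, with points for sham (blue) and AVF-CKD (orange) libraries and a line at each group mean (n = 6 each). For every gene 3 sham points lie below all AVF-CKD points, and the rest of the groups overlap.

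No difference in mean level between the groups passed the test for any of the 7 genes. In the edgeR quasi-likelihood test with Benjamini-Hochberg adjustment over all 18965 genes tested, 0 of the 7 passed an adjusted p of 0.05, and across all genes the share called was 0%. At an unadjusted p below 0.05 there were again 0 of 7, against 9.34% of all genes (1772). DESeq2 called 51 genes higher and 30 lower and limma voom called 0, with none of the 7 genes among them. For 0 of 7 did the groups not overlap, against 0.638% of all genes.

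The fitted difference was above 0 for 7 of 7 genes, with a median log2 fold change of 0.16, where 49.1% of all genes were above 0 and their median was 0. The 7 values come from the same libraries and are not independent of each other. Hbb-bs gave a log2 fold change of 0.42 ± 0.34 (SE), or 1.33-fold with a 95% interval of 0.797 to 2.23 (edgeR, adjusted p = 0.744), with 5 of 6 AVF-CKD libraries above the sham median. For Hbb-bt the fitted value was 0.42 ± 0.36 (edgeR, adjusted p = 0.751), with 5 of 6 libraries above the sham median. Alas2 gave 0.37 ± 0.39 (edgeR, adjusted p = 0.809), with 5 of 6.

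The other members had smaller fitted values. On the log2 scale Hba-a1 gave 0.10 ± 0.27 (adjusted p = 0.935 in edgeR) and Hba-a2 0.09 ± 0.25 (adjusted p = 0.937 in edgeR), each with 4 of 6 AVF-CKD libraries above the sham median. Bpgm gave 0.16 ± 0.24 (edgeR, adjusted p = 0.871), with 4 of 6, and Slc4a1 0.15 ± 0.52 (edgeR, adjusted p = 0.95), with 6 of 6. The intervals leave room for sizeable differences: for Bpgm from 0.782-fold to 1.6-fold, and for Slc4a1 from 0.507-fold to 2.44-fold. Single libraries moved all 7 values. Without sham 1 the log2 fold change was 0.22 for Hbb-bs, 0.23 for Hbb-bt, 0.17 for Alas2 and 0.031 for Bpgm, and it turned to -0.069 for Hba-a1, -0.069 for Hba-a2 and -0.053 for Slc4a1. For Slc4a1 it was also below 0 without sham 2, sham 3, AVF-CKD 4 or AVF-CKD 5, from -0.03 to -0.009.

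**Figure D2:**
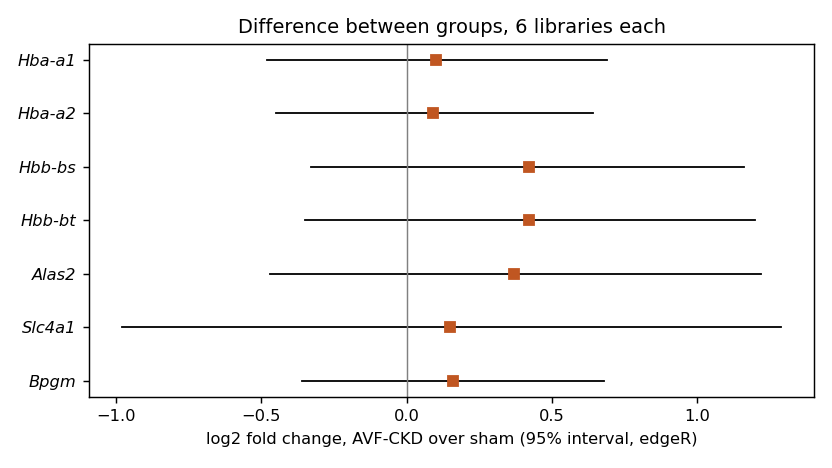
Fitted log2 fold change of AVF-CKD over sham for each of the 7 genes (squares) with its 95% interval from edgeR (lines), 6 libraries a group. Each interval includes 0, and that of Slc4a1 is the widest, from -0.98 to 1.29.

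The spread over libraries was wider than that of most genes, and wider in sham than in AVF-CKD. The SD of log2 CPM over the 6 sham libraries was 0.94 for Hbb-bs, 0.98 for Hbb-bt, 1.11 for Alas2 and 1.30 for Slc4a1, where the median over all genes tested was 0.23. It was lower for the alpha globins, 0.75 for Hba-a1 and 0.70 for Hba-a2, and for Bpgm, 0.60. Ranked among all genes tested, these sham values lay between the percentiles 88.3 (Bpgm) and 98.7 (Slc4a1). In AVF-CKD the SD was 0.37 for Hbb-bs, 0.41 for Hbb-bt, 0.36 for Alas2 and 0.58 for Slc4a1, at percentiles 72.3, 76.4, 71.5 and 88.7. Hba-a1 and Hba-a2, with 0.21 and 0.19, were there at or below the middle of all genes, at percentiles 43.1 and 38.1.

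All 7 genes had a larger SD in sham than in AVF-CKD, where 47.9% of all genes tested did, and this count remained 7 with any of the 12 libraries left out. It is a description with no test, and since the members vary together they are not 7 independent observations. Part of the sham range rested on 1 library. Without sham 1 the highest-to-lowest ratio in sham was 2.45 in place of 5.58 for Hbb-bs, 1.91 in place of 4.08 for Hba-a1 and 3.27 in place of 6.74 for Alas2. The SD in the remaining 5 sham libraries was then 0.57 for Hbb-bs and 0.45 for Hba-a1, still above the AVF-CKD values.

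The 7 genes followed each other across libraries. Over the 12 libraries, log2 CPM of Hbb-bs correlated with that of Hbb-bt (Pearson r = 0.98, Spearman rho = 0.91), Hba-a1 (0.96 and 0.90), Hba-a2 (0.95 and 0.90) and Alas2 (0.96 and 0.80). The correlation was r = 0.89 (rho = 0.83) with Bpgm and r = 0.80 (rho = 0.68) with Slc4a1. In permutation tests adjusted over a family of 14 genes, the adjusted p for r was 9.33e-05 for each of the 3 other globins, 0.000105 for Alas2, 0.000196 for Bpgm and 0.0018 for Slc4a1. For rho the adjusted p of these 6 genes ran from 0.00107 to 0.043 (Slc4a1). Hba-a1, Hba-a2 and Hbb-bt may share reads with a copy, which ties Hbb-bs to Hbb-bt but not to the alpha pair.

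The relation remained positive without the 2 libraries farthest from the median, but was weaker, most of all for Slc4a1, and these values were not tested. Without sham 1 and sham 2, r with Hbb-bs was 0.91 for Hbb-bt, 0.89 for Hba-a1, 0.86 for Hba-a2, 0.85 for Alas2, 0.71 for Bpgm and 0.57 for Slc4a1. Within the 6 sham libraries r ran from 0.80 (Slc4a1) to 0.99 (Hba-a1 and Hbb-bt), and within the 6 AVF-CKD libraries from 0.66 (Slc4a1) to 0.96 (Hba-a1). Among the genes other than globins, Slc4a1 and Bpgm were closest to each other (r = 0.96), followed by Alas2 and Bpgm (r = 0.95) and Alas2 and Slc4a1 (r = 0.92).

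**Figure D3:**
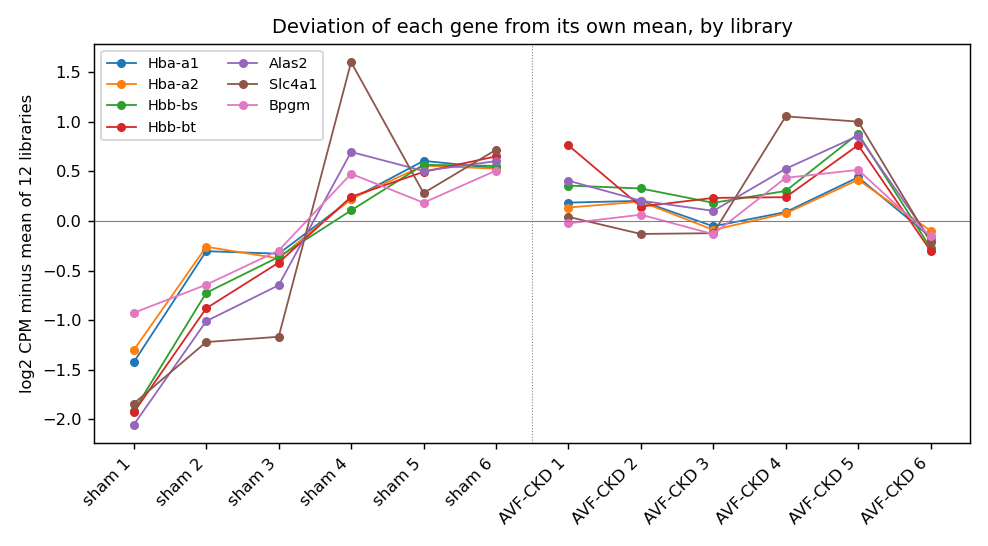
Deviation of each of the 7 genes from its own mean over the 12 libraries, in log2 CPM, with a line per gene that serves only to join its points. The lines run close together, with sham 1 lowest for every gene and Slc4a1 departing most, upward in sham 4, AVF-CKD 4 and AVF-CKD 5.

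For single genes of 8 other cell types no correlation with Hbb-bs passed the same test. For S100a8 of neutrophils r was 0.43 (permutation test, adjusted p = 0.333), with 0.87 within sham and -0.44 within AVF-CKD. Pf4 of platelets gave r = 0.16, Pecam1 of endothelium 0.07, Acta2 of smooth muscle -0.20, Col3a1 of fibroblasts -0.31, Lyz2 of macrophages 0.05, Adipoq of fat -0.17 and Ckm of skeletal muscle -0.08, with adjusted p from 0.608 to 0.89. Pf4 and S100a8 do not stand for their whole lists. Over 12 platelet markers r with Hbb-bs ran from 0.11 (Gp1bb) to 0.63 (Gp6), with a median of 0.47, and over 7 tested neutrophil markers from 0.10 (Ltf) to 0.61 (Cxcr2), with a median of 0.38, none of which was tested beyond Pf4 and S100a8. Of 10 neutrophil markers 7 were tested, 6 with a log2 fold change above 0, and their summed level ranged from 121 to 316 CPM in sham and from 124 to 414 CPM in AVF-CKD. The neutrophil granule genes Ngp and Camp were too low to be tested, with Ngp at 0 in 4 sham libraries. Of 12 platelet markers 10 were below 0, and their sums spanned 237 to 631 CPM in the sham libraries and 257 to 404 CPM in the others. Markers of endothelium, smooth muscle, fat and skeletal muscle were mostly lower in AVF-CKD, while those of fibroblasts were split. Of 10 endothelial markers 0 were above 0 (median -0.18), of 8 smooth muscle markers 2 (median -0.35) and of 8 fat markers 0 (median -1.05), with 0 of them called in edgeR. Of 8 fibroblast markers 4 were above 0 (median -0.08), with 0 called. Summed fat markers ran from 978 to 4309 CPM in sham and from 773 to 1577 CPM in AVF-CKD. Of 10 skeletal muscle markers 1 was above 0 (median -0.25), with 0 called. Their sums ran from 522 to 14187 CPM in sham and from 949 to 13450 CPM in AVF-CKD. The part of these cell types in the values of the 7 genes was not tested. In bulk RNA, fewer red cells and less RNA per red cell cannot be told apart.

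Library depth moved with the globin level. The adult globin share of the counts was 0.110% in sham 1, 0.234% in sham 2 and 0.274% in sham 3, which were the 3 deepest libraries, and 0.401% to 0.544% in the other sham libraries. In AVF-CKD it was lowest, 0.303%, in AVF-CKD 6, the deepest library of that group. Over 12 libraries log2 CPM of Hbb-bs correlated with total counts with r = -0.83 and rho = -0.67 (permutation tests, adjusted p = 0.00108 and 0.0417 over 2 relations, both chosen after seeing the data). Without sham 1 and sham 2 r was -0.56, within sham -0.91 and within AVF-CKD -0.51. CPM already divides by depth, and the part of depth in this relation was not tested.

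**Figure D4:**
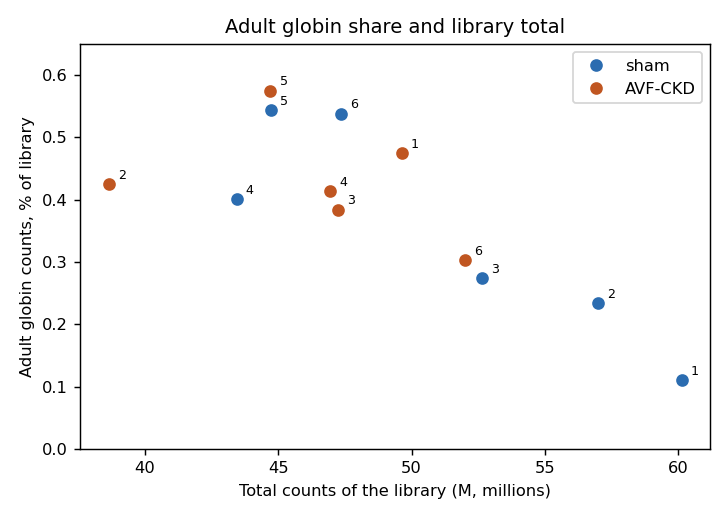
Share of the 4 adult globins in all counts of a library (vertical, percent) against the library's total counts (horizontal, M), with a numbered point per library in blue for sham and orange for AVF-CKD. Sham 1, 2 and 3 lie at the deep end with shares of 0.110% to 0.274%.

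The mean share of alpha globin was lower in AVF-CKD, by a difference that missed the threshold after adjustment. Alpha counts made up 46.6% and 45.4% of adult globin counts in sham 1 and sham 2, and 36.4% to 38.4% in the other 4 sham libraries. In AVF-CKD they made up 30.7% to 36.0% in 5 libraries and 39.7% in AVF-CKD 6. The means were 40.4% ± 4.4 (SD, n = 6) and 34.3% ± 3.19 (SD, n = 6), a difference of -6.12 points, with 5 of 6 AVF-CKD libraries below the lowest sham library. The two-sided exact permutation test gave p = 0.0195, where 0.00216 is the smallest it can give, and an adjusted p of 0.0584 over 3 shares, which misses the threshold of 0.05.

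This result turned on single libraries. Without AVF-CKD 6 the difference was -7.2 points (exact permutation test, adjusted p = 0.013), and over all omissions of a single library it ran from -7.2 to -4.87 points (exact permutation tests, adjusted p from 0.013 to 0.136). On deposited RPKM it was -6.28 points (exact permutation test, adjusted p = 0.0584). The share also moved with the erythroid level itself. Against log2 CPM of Alas2 it gave r = -0.82 and rho = -0.57 over the 12 libraries (permutation tests, adjusted p = 0.00137 and 0.0549 over the same 2 relations), r = -0.42 without sham 1 and sham 2, -0.86 within sham and -0.83 within AVF-CKD. Sham 4, 5 and 6, with Alas2 at 197 to 225 CPM, had alpha shares of 36.4% to 38.4%, and AVF-CKD 1 to 4, with Alas2 at 149 to 200 CPM, had 32.1% to 36.0%. Sham 1, 2 and 3 had Alas2 at 33.4, 68.9 and 88.6 CPM and alpha shares of 46.6%, 45.4% and 37.7%. AVF-CKD 5 and 6 had Alas2 at 252 and 122 CPM and alpha shares of 30.7% and 39.7%. The part of the erythroid level in the group difference was not tested.

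**Figure D5:**
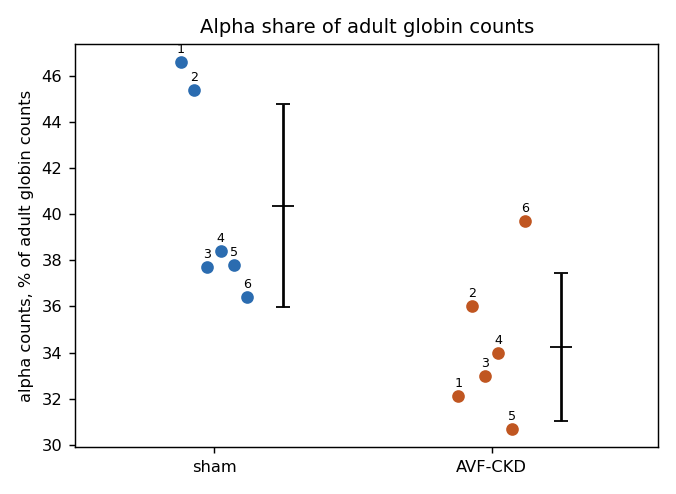
Alpha globin counts (Hba-a1 and Hba-a2) as a percent of all adult globin counts, with a numbered point per library and, beside each group, the mean with its SD (n = 6); the vertical axis does not start at 0. Sham 1 and sham 2 lie highest at 46.6% and 45.4%, and AVF-CKD 6 lies above the rest of its group at 39.7%.

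Within each pair of copies no difference in balance between the groups passed the test. Hba-a1 made up 52.6% ± 1.11 (SD, n = 6) of alpha counts in sham and 53.0% ± 0.688 (SD, n = 6) in AVF-CKD (exact permutation test, adjusted p = 0.75). Hbb-bs made up 71.1% ± 1.56 (SD, n = 6) of beta counts in sham and 70.7% ± 3.09 (SD, n = 6) in AVF-CKD (exact permutation test, adjusted p = 0.848). The lowest value was 64.8% in AVF-CKD 1, where Hbb-bt stood at 1106 CPM. Since reads can fit both copies, these shares may partly reflect how such reads were assigned, which was not tested.

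Other genes of the erythroid program were read from the same fit, and 0 of them passed the edgeR test, as for all genes. The counts that follow leave out the 7 genes themselves. Of the other globins, Hbq1a and Hbq1b, theta globins, were tested, and gave 0.32 ± 0.45 (adjusted p = 0.862 in edgeR) and 0.02 ± 0.61 (adjusted p = 0.997 in edgeR) on the log2 scale. The embryonic globins were near the limit of detection. Hbb-y had 46 counts over all sham and 47 over all AVF-CKD libraries, Hba-x 11 and 4, and Hbb-bh1 3 and 2, while Hbb-bh0 and Hbb-bh2 had 0 in every library, which allows up to 0.0499 to 0.0776 CPM depending on depth (3 counts, counting error only).

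The regulators Klf1, Gata1 and Gfi1b were low, while others of their list that are also used by other cells, such as Lmo2 and Ldb1, averaged 83.5 and 90.2 CPM over the 12 libraries. Klf1, a transcription factor of adult globin genes, had 46 counts in sham and 39 in AVF-CKD, too few to be tested. Gata1, the master regulator of erythroid cells, had a sham mean of 0.711 CPM ± 0.48 (SD, n = 6) and an AVF-CKD mean of 0.476 CPM ± 0.179, with log2 fold change -0.56 ± 0.39 and adjusted p = 0.695 in edgeR. Among 9 erythroid transcription factors tested, 4 were above 0 and 5 below, with a median of -0.12. The lowest p was that of Gfi1b, a repressor in erythroid cells and megakaryocytes, with means of 0.342 CPM ± 0.112 and 0.754 CPM ± 0.352 (SD, n = 6 each) and a fitted difference of 1.13 ± 0.35 on the log2 scale (adjusted p = 0.407 in edgeR).

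For heme synthesis, 12 genes were tested, 6 above 0 and 6 below, with a median of -0.02. Fech, which inserts iron into protoporphyrin to form heme, stood at 75.3 CPM in both groups. Slc25a37, the mitochondrial iron carrier, had the lowest p of the list, with a sham mean of 52.9 CPM ± 6.1 and an AVF-CKD mean of 67.8 CPM ± 11.5 (SD, n = 6 each) and a fitted difference of 0.36 ± 0.11 on the log2 scale (adjusted p = 0.407 in edgeR). Of 18 membrane and skeleton genes tested 10 were above 0 (median 0.07). Add2, an adducin gene of the membrane skeleton, had the lowest p among them, with 0.389 CPM ± 0.179 in sham against 0.833 CPM ± 0.484 in AVF-CKD (SD, n = 6 each), or 1.11 ± 0.39 on the log2 scale (adjusted p = 0.447 in edgeR), on 10 to 79 counts.

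Of 10 red cell enzymes 6 were above 0 (median 0.08), and of 9 genes of erythroid maturation 5 were (median 0.11). Of 9 genes that clear hemoglobin and heme 7 were above 0 (median 0.17). The lowest p among them was that of Lrp1, a receptor that takes up heme bound to hemopexin and many other ligands. It stood at 514 CPM ± 18.8 in sham against 694 CPM ± 158 in AVF-CKD (SD, n = 6 each), or 0.43 ± 0.13 on the log2 scale (adjusted p = 0.407 in edgeR), with 5 of 6 AVF-CKD libraries above all sham libraries. The median over all genes tested was 0. Many genes of these lists are also used by cells of the vessel wall and by macrophages. The membrane and skeleton genes Ank1, Sptb and Tmod1 were lowest in sham 3 and highest in sham 4. Ckm of skeletal muscle was also lowest in sham 3, at 54.2 CPM, and stood at 1548 CPM in sham 4. Ckm and the enzyme gene Aldoa were both highest in AVF-CKD 2, at 1655 and 1718 CPM. The part of skeletal muscle in these lists was not tested.

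Only some of these genes varied with the globins over the libraries. Of 69 list genes outside the 7, 10 had a positive Pearson r with Hbb-bs at an adjusted p below 0.05 in permutation tests and 0 a negative one, a family chosen after seeing the data. The lowest r among the 10 was 0.70, a value reached by 14.5% of the 69 and by 0.971% of all tested genes outside the 7 (184 of 18958). By Spearman rho 0 did, with a lowest adjusted p of 0.0504. The 10 were the 2 theta globins, 5 of 18 membrane genes, 2 of 9 maturation genes and 1 of 9 transcription factors, while 0 of 12 heme synthesis genes, 0 of 10 enzymes and 0 of 9 clearance genes were among them. Among the 10, Mkrn1 gave r = 0.90, and 0.73 without sham 1 and sham 2, and the theta globin Hbq1a 0.83 and 0.79. Nfe2, an erythroid and megakaryocyte transcription factor, gave r = 0.78, and 0.36 without sham 1 and sham 2. The membrane skeleton genes Add2, Epb42 and Epb41 gave r = 0.77, 0.74 and 0.70, and Hbq1b 0.71. Without sham 1 and sham 2 these were 0.46, 0.48 and 0.53, and 0.78 for Hbq1b.

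Across all named genes outside the 7, the pattern most like that of the summed adult globins was that of Apex2, with r = 0.970 over the 12 libraries. Apex2 had a sham mean of 27.4 CPM ± 10.1 and an AVF-CKD mean of 31.2 CPM ± 3.82 (SD, n = 6 each). Its model spans Alas2 on the opposite strand and shares 311 exonic bases with it, and reads of the shared bases cannot be told apart. Of the exonic bases of Apex2, 4.96% are shared with any model. Alas2 averaged 158 CPM over the 12 libraries and Apex2 29.3 CPM, so the shared bases may hold a larger share of the Apex2 reads. The part of Alas2 reads in the pattern of Apex2 was not tested. Others among the 10 most alike were Mkrn1 (r = 0.902), Exoc2 (0.849), Dgkg (0.844), Adcyap1r1 (0.844), Ncapd3 (0.839), Hbq1a (0.837), Lancl3 (0.830) and Ncoa4 (0.827). Among the 5 genes closest to Bpgm were Apex2 (r = 0.953), Ncoa4 (0.914), a receptor that guides ferritin breakdown, and Dlg2 (0.907). These were picked from 14535 genes as the most alike, so r is given as a description.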

How the data were processed

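Vein RNA of 12 mouse libraries, 6 sham and 6 AVF-CKD by their titles, was prepared with an unstranded TruSeq kit, per the labels' protocols. The deposited table gave whole-number read counts and RPKM values per gene and library. Per the submitters' processing notes the build was GRCm38 and the tools were TopHat2 2.1.0, featureCounts and edgeR, with no roles stated. Annotation release, strand setting and treatment of reads that fit several places were not given in the sources used here. Deposited gene length was used only for RPKM, whose library total was 1.15 to 1.19 times the sum of counts. There were 0 per-sample columns of other series.

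Counts were filtered with filterByExpr by group (18965 of 43346 genes kept), scaled with TMM and tested with edgeR 4.0.16 in R 4.3.3, group being the single term, with Benjamini-Hochberg adjustment and a threshold of 0.05. The biological coefficient of variation was 24.2%. log2 CPM used a prior count of 2. Shares were compared by exact permutation tests, and correlations by 100000 permutations (scipy 1.17.1). Totals of 38.65 to 60.14 M counts set the depth. On simulated counts of this comparison (18813 genes) the fit found 43.6% of genes changed 1.5-fold, 75.3% of those changed 2-fold and 86.1% of those changed 4-fold, and 4.73% of its calls were false. The changed genes were drawn from all genes. Over the 12 libraries the SD of the 7 genes ranked at percentiles 79.9 (Bpgm) to 97.1 (Slc4a1), so these shares may be too high for them. Alternatives were 3 other scalings, no filter, DESeq2 1.42.0, limma 3.58.1 voom, the title number as a block, summed copies, and each library left out. Leaving out libraries for the spread was added after seeing the data.

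The 7 genes and all lists were chosen with earlier results of these data known. The naming rule took the 7 genes, the most abundant gene and that with the smallest p of each list, the 10 genes most like the summed globins and the 5 most like Bpgm, and a few erythroid genes. Of those, marker genes of other cell types and list genes on which no result turned are not detailed. List genes that followed Hbb-bs were named after their values were seen. So were Fech, Lmo2, Ank1, Sptb, Tmod1 and the marker genes at the ends of a range. A few genes named by this rule are not reported here. Promoter windows came from RefSeq (GRCm38.p6) and coding sequences from GENCODE M21 (GRCm38).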

Additional observations from a re-analysis of the deposited data

Results flagged for a closer look

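In 10 of 74 groups of 6 libraries checked, the highest or lowest library stood apart from the other 5 by Dixon's test at 95%. Chance gives about 1 in 20 groups for independent, normally distributed values. CPM values need not be so, and the groups share libraries, so 10 of 74 cannot be read as an excess. Of the 7 genes and the 3 globin shares this held for 1 value: Hba-a1 made up 51.7% of alpha counts in AVF-CKD 6, against 52.9% to 53.6% in the rest of that group. AVF-CKD 6 also stood apart by a low Mkrn1, an RNA-binding protein gene that followed the globins, at 90.7 CPM (others 108 to 116), and a low Ldb1, a cofactor of erythroid transcription, at 73.7 CPM (others 92.6 to 101).

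Sham 5 stood apart by a high Gata1, at 1.65 CPM (others 0.291 to 0.669), and a high Hk1, a hexokinase gene, at 63.7 CPM (others 51.3 to 54.1). Add2, a gene of the membrane skeleton, was high in AVF-CKD 5 at 1.79 CPM (others 0.439 to 0.748), and Aqp1, a water channel gene of red cells and endothelium, in AVF-CKD 3 at 634 CPM (others 323 to 413). The 3 counts of the embryonic globin Hbb-bh1 in sham were all in sham 6, at 0.0623 CPM, with 0 in the others. Among genes of other tissues, Adipoq of fat was high in sham 6 at 386 CPM (others 81 to 179) and Ckm of skeletal muscle in AVF-CKD 2 at 1655 CPM (others 89.6 to 580).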

How the results depend on the processing

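Over 140 combinations of the 7 genes with 20 alternatives, the difference kept its direction in 133 and none was called, with a lowest adjusted p of 0.524 (Hbb-bt, limma voom). The 7 reversals came with a library left out: without sham 1, Hba-a1 -0.069, Hba-a2 -0.069 and Slc4a1 -0.053, and for Slc4a1 also without sham 2 (-0.019), sham 3 (-0.017), AVF-CKD 4 (-0.03) and AVF-CKD 5 (-0.009). With a library left out the log2 fold changes ran from -0.069 to 0.25 for Hba-a1, -0.069 to 0.23 for Hba-a2, 0.22 to 0.59 for Hbb-bs, 0.23 to 0.63 for Hbb-bt, 0.17 to 0.57 for Alas2, -0.053 to 0.70 for Slc4a1 and 0.031 to 0.29 for Bpgm. Hbb-bs in beta counts differed by 0.0357 points without sham 2 and by 0.805 points without AVF-CKD 1, against -0.371 with all libraries, and ran from -0.926 to 0.805. Hba-a1 in alpha counts ran from 0.00966 to 0.649 points, and alpha in adult globin from -7.2 to -4.87, the -7.2 (without AVF-CKD 6) passing the threshold. The cause of these shifts was not tested. Genes called were 0 with edgeR, 51 higher and 30 lower with DESeq2, and 0 to 1 higher with a library left out (1 without AVF-CKD 3). With the title number as a replicate block 0 genes were called, 2058 had an unadjusted p below 0.05, and Hbb-bs gave 0.58 (edgeR, adjusted p = 0.573). The others gave, with the block and then with limma voom, 0.22 and 0.23 for Hba-a1, 0.20 and 0.20 for Hba-a2, 0.59 and 0.67 for Hbb-bt, 0.62 and 0.67 for Alas2, 0.51 and 0.67 for Slc4a1 and 0.24 and 0.25 for Bpgm, and voom gave 0.59 for Hbb-bs. Same-numbered libraries of the groups correlated in their deviations with -0.109 to 0.277, and 1 of 6 numbers matched itself best. Whether same-numbered libraries shared anything beyond the number cannot be told from these values. Depth limits Slc4a1, Klf1, Gata1, Gfi1b and the embryonic globins, which have few counts.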
